A study of Mus musculus with 6 samples.

Results

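The genes described here are 9 transcription factors of the neurogenic program, namely Neurod1, Neurod2, Neurod4, Neurod6, Nhlh1, Nhlh2, Neurog2, Hes6 and Insm1. They were taken by name from the 21899 rows of the count table, because the virus given to the RN group carried NeuroD1. No measured value entered the rule, but the genes were chosen with earlier results of these data known. All 9 were found, each as 1 row, and all 9 passed the filter on low counts that left 14956 genes for testing.

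The mice were wild-type male C57BL/6J, bought at 8 to 10 weeks of age. In both groups the left thalamus had been given a single 50 Gy dose of gamma rays, and 2 weeks later 2 µL of AAV9 was injected into the thalamus. The 3 RC mice received AAV9 GFAP104::tdTomato, which makes a red fluorescent protein alone, and the 3 RN mice received AAV9 GFAP104::mND1-tdTomato, which makes mouse NeuroD1 as well. GFAP104 joins an EF1α enhancer to a GFAP promoter and is meant to work mainly in astrocytes, so the choice of cell rests on that promoter. Tissue was taken 6 weeks after irradiation. The labels call it brain tissue, and the paper describes it as thalamus dissected from beneath the hippocampus in a coronal slice. Its cells were sequenced together, so fewer cells of a type and less RNA per cell cannot be told apart in any value given here. Unirradiated mice and mice without virus were not analysed here.

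Library totals lay between 16561663 and 18657015 counts. Where a gene had 0 reads in a library, up to 3 could have been missed, or 0.160 to 0.179 CPM (the count scaled to library size), and this covers counting error only. Nothing in the labels says that the mice of a group came from separate litters or days, so p-values measure the spread between these libraries. All 15 thalamus markers were tested, and their summed level was 1628 to 3174 CPM in RC mice and 1260 to 2160 CPM in RN mice. All 15 had a log2 fold change (RN minus RC) below 0, with a median of -0.53 that went to -0.16 without RC replicate 3, to -0.31 without RN replicate 3 and to -1.11 with RN replicate 3 as the only RN mouse. None was called by edgeR's quasi-likelihood test, and DESeq2 called 1, Tnnt1, lower. The part of this in the values of the 9 factors was not tested.

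NeuroD proteins are basic helix-loop-helix (bHLH) factors that pair with widely expressed E proteins and bind the E-box, the hexamer CANNTG. In developing brain they act in a cascade, with Neurog2 early in progenitors, and Neurod1, Neurod4 and Nhlh1 as a cell leaves the cycle and becomes a neuron. Neurod2 and Neurod6 then mark maturing and adult excitatory neurons of the cortex and hippocampus. Hes6 opposes the Notch effector Hes1, and Insm1 is a zinc-finger repressor of newborn neurons and neuroendocrine cells.

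The counts do not separate NeuroD1 made from the virus from NeuroD1 made from the mouse gene. Of the 2729 exonic bases of Neurod1 in GENCODE M21, 1071 are coding (39.2%), and the viral insert was not given in the sources used here. To show how far reads of one family member could be counted for another, the coding sequence of Neurod1 was compared with those of the other 8 genes. The longest identical run was 25 bases with Neurod2, 17 with Neurod6, 15 with Neurod4, 13 with Nhlh2 and Neurog2, 11 with Insm1, 10 with Hes6 and 9 with Nhlh1. The runs shared with Neurod2 and Neurod4 lie in the part that codes for the bHLH domain and are printed 5′ to 3′ from GENCODE M21 transcripts, with the identical bases in capitals and 20 bases on either side in lower case.
Neurod1, coding bases 434 to 458: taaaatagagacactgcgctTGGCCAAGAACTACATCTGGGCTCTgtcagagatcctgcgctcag
Neurod2, coding bases 497 to 521: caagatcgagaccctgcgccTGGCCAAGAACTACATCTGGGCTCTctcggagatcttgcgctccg
Neurod1, coding bases 441 to 455: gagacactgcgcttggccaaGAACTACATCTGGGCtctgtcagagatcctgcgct
Neurod4, coding bases 399 to 413: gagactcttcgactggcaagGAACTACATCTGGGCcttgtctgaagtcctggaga
Positions count from 1 at the first base of each coding sequence and cover the capitals. Neurod1 also overlaps Cerkl, a gene on the same strand, over 201 exonic bases. Cerkl had between 2 and 17 counts in every library, with overlapping groups.

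For the 3 genes with the largest fold changes, the 300 bases around the start of the gene (250 before it and 50 after) are shown from RefSeq on build GRCm38.p6, 5′ to 3′ on the gene's strand, with each E-box (CANNTG, which reads the same on both strands) in capitals. The first belongs to the mouse gene, while GFAP104 drives the viral copy, and the others to the genes that stood at the lowest levels in RC.
Neurod1, chr2:79456587-79456886, minus strand: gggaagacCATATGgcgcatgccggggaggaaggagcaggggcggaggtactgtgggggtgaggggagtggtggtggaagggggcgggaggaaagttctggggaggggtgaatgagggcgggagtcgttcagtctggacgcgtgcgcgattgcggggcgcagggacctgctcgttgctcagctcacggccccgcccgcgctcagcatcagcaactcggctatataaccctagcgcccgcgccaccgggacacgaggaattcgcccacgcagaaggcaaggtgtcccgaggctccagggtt
Neurod4, chr10:130280089-130280388, minus strand: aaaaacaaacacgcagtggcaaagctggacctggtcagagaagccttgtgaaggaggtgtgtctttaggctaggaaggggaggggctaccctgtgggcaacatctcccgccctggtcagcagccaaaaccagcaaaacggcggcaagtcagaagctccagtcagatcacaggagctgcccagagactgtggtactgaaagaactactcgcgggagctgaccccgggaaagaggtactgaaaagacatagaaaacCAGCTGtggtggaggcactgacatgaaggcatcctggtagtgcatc
Nhlh1, chr1:172057547-172057846, minus strand: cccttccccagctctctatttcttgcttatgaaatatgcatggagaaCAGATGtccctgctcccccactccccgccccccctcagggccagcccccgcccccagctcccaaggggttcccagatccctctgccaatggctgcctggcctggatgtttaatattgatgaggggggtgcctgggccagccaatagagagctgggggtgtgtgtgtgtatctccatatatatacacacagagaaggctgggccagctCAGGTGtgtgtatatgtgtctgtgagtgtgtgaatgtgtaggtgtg
The Neurod1 window held 1 E-box, CATATG, and the Nhlh1 window held 2, CAGATG and CAGGTG. The Neurod4 window held 1, CAGCTG, whose first base lies 4 bases after the start, and a second annotated start of Neurod4, whose window overlaps this one, had none. Windows were found for 8 of the 9 genes, all but Insm1, and 8 of their 10 windows held an E-box. Of all 32851 windows, 72.3% held one, 16.3% held CAGCTG, and 17.2% held CAGATG on either strand, so the shares among these genes are a description and not a sign of binding.

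RN was compared with RC to ask what the NeuroD1 virus did to this family. Neurod1, Neurod4, Nhlh1 and Insm1 were higher in every RN mouse than in every RC mouse. Neurod1 alone was called higher, that is, changed by 2-fold or more with an adjusted p below 0.05, and no member was called lower. The same rule called 0.0602% of the 14956 tested genes higher and 0.0134% lower (9 and 2 genes by quasi-likelihood in edgeR, 17 and 5 once the replicate number was a block). Groups did not overlap, with RN higher, in 8.18% of all tested genes, and with RN lower in 8.12%, where 0 members were. At an unadjusted p under 0.05, 4 members were higher and 0 lower, where 5.44% and 6.33% of all tested genes were. The median log2 fold change of the 9 genes was 0.35, and 0.20 without Neurod1, against 0.00 over all tested genes. DESeq2's Wald test called 3 members higher, Neurod1, Neurod4 and Nhlh1, and 0 lower, with 0.63% of 15864 genes called higher and 0.548% lower.

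**Figure D1:**
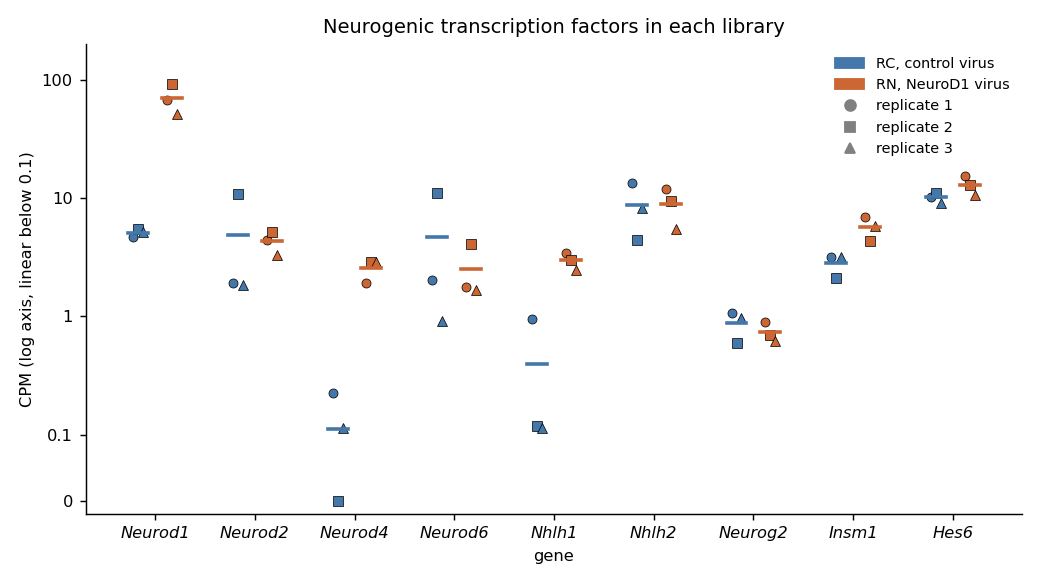
Level of each of the 9 genes in each library, in CPM on a log axis that is linear below 0.1, with RC in blue, RN in orange, a symbol for each replicate number and a bar at the group mean. For Neurod1, Neurod4, Nhlh1 and Insm1 all RN points lie above all RC points. In Neurod2 and Neurod6, RC replicate 2 lies above every other library.

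Neurod1, the transduced factor, was at 4.71, 5.44 and 5.16 CPM in RC replicates 1 to 3 and at 66.8, 91.5 and 50.9 CPM in RN replicates 1 to 3. The SD of the RC mice was 7.18% of their mean, the smallest of the 9 genes in RC, while the RN mice spread over 1.80-fold. The lowest RN mouse was 9.36-fold above the highest RC mouse. The log2 fold change was 3.77 (standard error 0.227), a 13.7-fold rise with a 95% interval of 9.52 to 19.6 (Benjamini-Hochberg adjusted p = 0.00178, edgeR), and it had the smallest p of all tested genes. It was called in each of the 6 fits that left out 1 mouse. As a share of the summed CPM of the 9 genes, Neurod1 went from 11.9% to 17.3% in RC to between 58.9% and 68.3% in RN. The summed CPM of the other 8 genes was 24.6 to 40.2 in RC and 32.8 to 46.7 in RN, which overlap.

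Neurod4, a NeuroD factor of newborn neurons, was close to absent in RC, with 4, 0 and 2 reads, and was detected in every RN mouse, with 32, 54 and 52 reads. The RC values stood at or near the floor of 3 counts, so the size of the rise was poorly fixed. Summed over mice there were 6 reads in RC and 138 in RN, a ratio of 22.4 after scaling, with an exact 95% interval of 10.0 to 62.1 for counting error alone. The fitted log2 difference of 4.40 (standard error 0.633, adjusted p = 0.0630, edgeR's quasi-likelihood test) was larger than that of 99.98% of tested genes but missed the threshold. It was called by DESeq2 (adjusted p = 4.38e-06), by edgeR when low counts were not filtered (0.0357) and by edgeR with legacy set to FALSE (0.0292). The block gave an adjusted p of 0.0956 and the fits without 1 mouse 0.0825 to 0.200. Leaving out RC replicate 1 gave a log2 fold change of 5.30, since that mouse held 4 of the 6 RC reads.

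Nhlh1, a bHLH factor that appears briefly in new neurons, had 0.953, 0.120 and 0.115 CPM in RC mice and 3.45, 2.99 and 2.46 CPM in RN mice. The RN mice were close to each other, over a 1.40-fold range, while RC replicate 1, with 17 reads, was about 8 times the other RC mice, with 2 reads each. The summed reads, 21 in RC and 158 in RN, gave a ratio of 7.33 (exact 95% counting interval 4.63 to 12.2). On the log2 scale the difference was 2.87 (standard error 0.671, adjusted p = 0.139 from edgeR, 0.00291 from DESeq2), and 4.58 without RC replicate 1 (adjusted p from edgeR between 0.0664 and 0.319 over the fits without 1 mouse). The lowest RN mouse was 2.58-fold above the highest RC mouse.

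Insm1 was at 3.20, 2.09 and 3.15 CPM in RC mice and 6.90, 4.33 and 5.82 CPM in RN mice. Both groups spread alike, with SDs of 22.2% and 22.7% of the mean, and the lowest RN mouse was 1.35-fold above the highest RC mouse. The log2 fold change was 1.01 (standard error 0.271), a 2.01-fold difference with an interval of 1.31 to 3.10, and it missed the threshold in every fit run (adjusted p = 0.189 in edgeR's quasi-likelihood test, 0.0647 in DESeq2). Hes6, the Notch antagonist, was at 10.3, 11.1 and 9.17 CPM in RC mice and 15.3, 13.0 and 10.6 CPM in RN mice. RN replicate 3 lay within the RC range, and the log2 difference was 0.35 (standard error 0.175, 95% interval -0.05 to 0.75, adjusted p = 0.497 from edgeR).

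The order of the RN mice was not the same from gene to gene. Neurod1 was highest in RN replicate 2 and lowest in RN replicate 3, Neurod4 was lowest in RN replicate 1, and Nhlh1 and Insm1 were highest there. Neurod1 reads were 35.1, 31.7 and 17.5 times the Neurod4 reads in RN replicates 1 to 3.

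**Figure D2:**
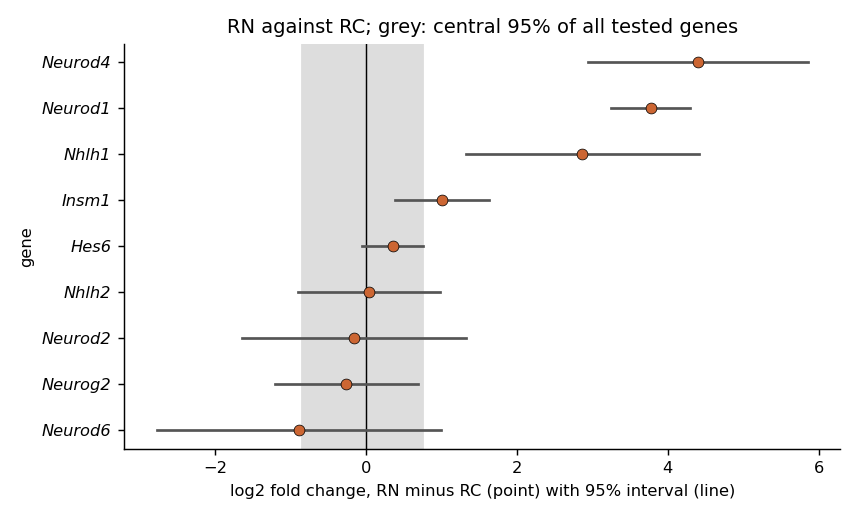
Fitted log2 fold change of each gene, RN minus RC, with its 95% interval from edgeR's quasi-likelihood fit, beside the central 95% of all tested genes in grey (-0.843 to 0.761). The intervals of Neurod4, Neurod1 and Nhlh1 lie wholly above the grey band, that of Insm1 lies above 0, and those of the other 5 genes include 0.

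Neurod2 and Neurod6, the factors of mature excitatory neurons, did not follow Neurod1. Neurod2 was at 1.91, 10.8 and 1.83 CPM in RC mice and 4.40, 5.19 and 3.30 CPM in RN mice, and Neurod6 at 2.02, 11.1 and 0.916 CPM in RC mice and 1.78, 4.06 and 1.68 CPM in RN mice. Their log2 fold changes were -0.16 (standard error 0.646, 95% interval -1.65 to 1.32, adjusted p = 0.961) and -0.89 (standard error 0.821, interval -2.78 to 1.00, adjusted p = 0.766, edgeR's quasi-likelihood test). RC replicate 2 decided both directions. Without it the log2 fold changes were 1.20 (adjusted p = 0.249) for Neurod2 and 0.77 (adjusted p = 0.717) for Neurod6, both from edgeR. With the replicate block Neurod2 was at 0.25.

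RC replicate 2 also stood highest for some genes of cortex and hippocampus, though not for all of them. Slc17a7, the vesicular glutamate transporter of those regions, had 1996, 4557 and 3478 counts in RC mice and 2591, 3343 and 1625 in RN mice, and Emx1, a cortical homeobox gene, had 2, 20 and 6 against 6, 2 and 5. Over all 16 genes of the cortex and hippocampus list the summed level was 528 to 726 CPM in RC mice and 624 to 685 CPM in RN mice. Without overlap 3 of its 14 tested genes were higher, where 8.18% of all tested genes were. Of the 14, 0 were called, and DESeq2 also called 0. The median log2 fold change was 0.34, with 1 mouse deciding its direction: it was -0.10 without RN replicate 3 and 0.07 without RC replicate 1. The part of such tissue in the Neurod2 and Neurod6 values was not tested.

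Nhlh2, known from hypothalamic neurons, was at 13.3, 4.42 and 8.31 CPM in RC mice and 12.02, 9.36 and 5.42 CPM in RN mice. The RN mice lay within the range of the RC mice, at a log2 difference of 0.04 (standard error 0.409, 95% interval -0.90 to 0.98, adjusted p = 0.985 from edgeR), which turned negative without RC replicate 2 (-0.28), RN replicate 1 (-0.23) or RN replicate 2 (-0.0050). Neurog2, the early proneural factor, had 19, 10 and 17 counts in RC mice and 15, 13 and 11 in RN mice. The log2 difference of -0.26 (standard error 0.413, interval -1.21 to 0.69, adjusted p = 0.879 from edgeR) was within the spread between mice. At this depth neither a 1.61-fold rise nor a fall to 0.431 of the RC level in Neurog2 lies outside the interval.

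Levels of different genes were compared as CPM per kb of exon. In RC Hes6 stood first at 5.63 ± 0.542 CPM per kb (SD, n = 3 mice), followed by Neurod6, Neurod1, Nhlh2, Neurod2 and Insm1, from 2.18 ± 2.61 to 0.907 ± 0.202. Neighbours among these 6 overlapped in their ranges. Insm1 was clear of Neurog2 (0.395 ± 0.111), and Nhlh1 (0.161 ± 0.196) and Neurod4 (0.0338 ± 0.0335) came last, each overlapping the gene before it. In RN Neurod1 moved to the first place at 25.6 ± 7.50 CPM per kb, clear of Hes6 at 7.18 ± 1.31, which was clear of Insm1 at 1.83 ± 0.416. The length used for Neurod1 was that of the mouse gene, while its RN reads can mix viral and mouse transcripts. Its RN level per kb is therefore approximate, since the viral insert was not given. Nhlh2, Neurod2, Nhlh1, Neurod6 and Neurod4 followed from 1.65 ± 0.613 to 0.767 ± 0.171, each overlapping its neighbour. Neurog2, at 0.330 ± 0.0641, was last and below every RN value of Neurod4, reversing the order of that pair in RC.

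The genes whose profile over the 6 libraries was most like that of Neurod1, by the root mean square difference of log2 CPM centred on the RC mean, were Sprr1a (0.496), Tdh (0.501), Rgs13 (0.532), Gal (0.566) and Klk8 (0.689). For Neurod4 they were Tdh (0.345), Gal (0.605), Lilrb4a (0.669), Sprr1a (0.693) and Cilp (0.849). Tdh, a threonine dehydrogenase gene, had 2, 0 and 0 counts in RC mice and 25, 28 and 31 in RN mice, a pattern like that of Neurod4 with fewer reads. Rgs13, a regulator of G-protein signalling, had 1, 2 and 0 counts in RC mice and 31, 28 and 16 in RN mice. Lilrb4a has a near-identical relative, so its counts are uncertain. The measure picks genes that rose by a similar amount in log2 CPM with a prior count of 2, and it carries no test. Fitted log2 fold changes could differ more, at 5.12 for Tdh (standard error 0.749) against 3.77 for Neurod1.

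The other factors of the program were compared next. In the lists from here to the astrocyte genes, edgeR's quasi-likelihood test called no gene in either direction. Of all tested genes it called 0.0602% higher and 0.0134% lower. With the replicate block 0 were called as well, and with DESeq2 1 was, Igfbpl1. Some others had an adjusted p under 0.05 but changed by less than 2-fold, so they were not called. Of the genes named below, DESeq2 gave such values for Id3 (0.00576), Hey1 (0.0197), Heyl (0.00826), Sox11 (0.0079) and Rcor2 (0.0237). It also did for Aldoc (1.85e-05), Aqp4 (0.0004) and Sox9 (0.00589), and edgeR with the block did for Aldoc (0.0473). Other proneural bHLH genes had a summed level of 234.7 to 321.5 CPM in RC mice and 248.2 to 313.5 CPM in RN mice. Some of them were scarce. Of 15, 7 were tested, and Neurog1, Neurog3, Atoh1, Ptf1a and Olig3 did not exceed 3 counts in any library. Atoh8 (0.61, adjusted p = 0.719) and Tal1 (-0.29, adjusted p = 0.740) overlapped between the groups, and the median of the 7 was 0.09, which turned to -0.06 without RC replicate 3, -0.03 without RC replicate 1, -0.01 without RN replicate 1 or -0.01 without RN replicate 2 and rose to 0.23 without RC replicate 2.

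Among the 12 E proteins, Id proteins and Hes and Hey repressors, which pair with or oppose bHLH factors, 2 had a log2 fold change above 0 and the median was -0.13 (-0.07 without RC replicate 2 and -0.22 without RC replicate 3). The E protein genes Tcf3, Tcf4 and Tcf12 overlapped between the groups, at -0.16, -0.10 and -0.07. Id3, an inhibitor that ties up E proteins, had 812, 896 and 689 counts in RC mice and 529, 592 and 449 in RN mice, without overlap (log2 fold change -0.65, standard error 0.144, adjusted p = 0.131). Hey1, a Notch target, was at -0.48 (adjusted p = 0.137) and Heyl at 0.80 (adjusted p = 0.141), both without overlap.

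Of 20 other neurogenic factors 16 had a log2 fold change above 0, with a median of 0.24 (0.16 without RC replicate 2). The median of all tested genes was 0.00. Of the 20, 5 were higher and 1 was lower without overlap, where 8.18% and 8.12% of all tested genes were. Sox11, a factor of immature neurons, had 138, 116 and 183 counts in RC mice and 262, 241 and 346 in RN mice (log2 fold change 0.93, standard error 0.215, adjusted p = 0.137). Rcor2, a corepressor, was at 0.88 (adjusted p = 0.137) and Scrt1, a neuronal repressor, at -0.47 (adjusted p = 0.245). Insm2, the relative of Insm1, had 9, 9 and 4 counts in RC mice and 13, 17 and 19 in RN mice (log2 fold change 1.10, standard error 0.465, adjusted p = 0.408).

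Among 12 Notch ligands, receptors and modifiers the median was -0.13. Of these, 2 were higher and 3 lower without overlap, where 8.18% and 8.12% of all tested genes were. Newborn neurons carry the ligands Dll1 and Dll3, which were the 2 higher ones. Dll3 had 20, 37 and 30 counts in RC mice and 58, 74 and 65 in RN mice (log2 fold change 1.13, standard error 0.302, adjusted p = 0.188), and Dll1 was at 0.59 (adjusted p = 0.206). The 3 lower ones were Dll4 at -0.74, Numb at -0.28 and Rfng at -0.15 (adjusted p = 0.324, 0.280 and 0.588, edgeR's quasi-likelihood test).

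Of 16 genes of immature neurons 13 had a log2 fold change above 0, with a median of 0.16 that fell to 0.07 without RC replicate 2. Without overlap 4 of the 16 were higher and 1 was lower, where 8.18% and 8.12% of all tested genes were. Igfbpl1, a marker of new neurons, had 11, 22 and 32 counts in RC mice and 55, 146 and 111 in RN mice. On the log2 scale that is 2.20 (standard error 0.452, adjusted p = 0.124 from edgeR, 0.000447 from DESeq2). Sstr2, a somatostatin receptor, was at 0.57 (adjusted p = 0.314) and Tubb2b, a tubulin, at -0.33 (adjusted p = 0.352). The 11 genes of mature neurons had a median of 0.12 (0.08 without RN replicate 1 and 0.18 without RC replicate 3). Without overlap 0 of the 11 were higher and 0 lower, beside the same 8.18% and 8.12% of all tested genes. Gad2 was at 0.50, Nefm at 0.25 and Eno2 at 0.17 (adjusted p = 0.293, 0.517 and 0.577, edgeR's quasi-likelihood test).

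Where 8.12% of all tested genes were lower without overlap, 8 of the 10 astrocyte genes were. These genes come from the cells that the promoter targets, and all 10 had a log2 fold change below 0. Their median was -0.46, with Aldoc at -0.76, Aqp4 at -0.75 and Sox9 at -0.52 (adjusted p = 0.0836, 0.124 and 0.106, edgeR's quasi-likelihood test). Their summed level was 6054 to 7748 CPM in RC mice and 4170 to 5348 CPM in RN mice.

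**Figure D3:**
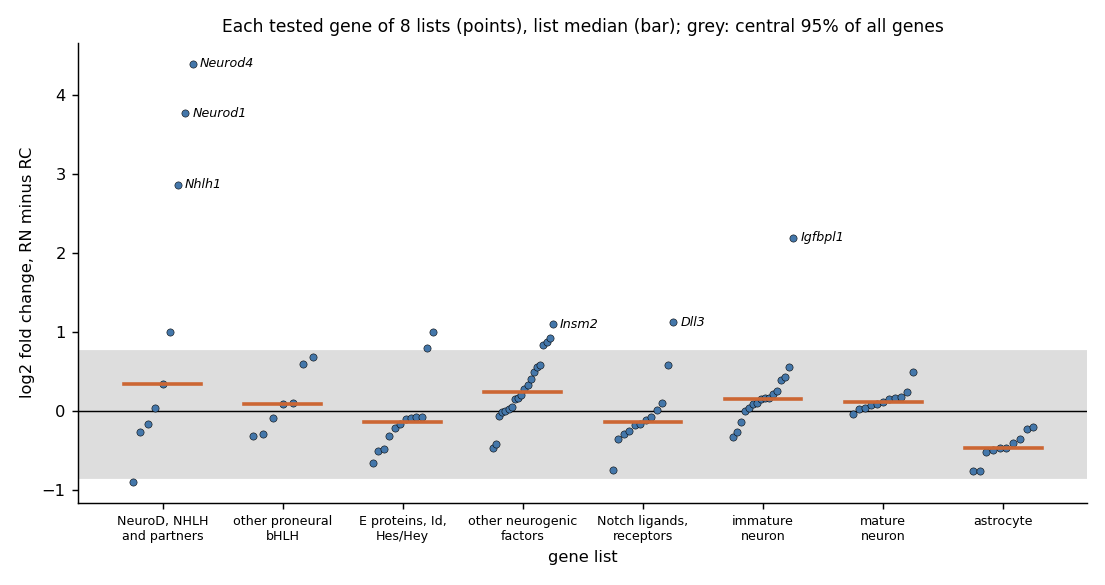
Log2 fold change, RN minus RC, of every tested gene in 8 gene lists (points), with the list median as a bar and the central 95% of all tested genes in grey. Neurod4, Neurod1, Nhlh1, Igfbpl1, Dll3 and Insm2 stand highest and are labelled. The astrocyte points all lie below 0.

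Neurod1, Neurod4 and Insm1 are also known from the pituitary, and transcripts of that gland were present. The summed level of the 12 pituitary genes was 103, 103 and 11.1 CPM in RC mice and 1416, 669 and 10.6 CPM in RN mice, so the groups overlapped. Gh, growth hormone, had 1008, 1284 and 16 counts in RC mice and 18453, 7461 and 27 in RN mice, Cga 58, 41 and 0 against 826, 1252 and 2, Fshb 10, 3 and 1 against 158, 235 and 3, and Prl 380, 178 and 8 against 3884, 3116 and 6. None of the 6 tested genes was called without the block or by DESeq2. With the replicate block 1 was, Cga, at a log2 fold change of 4.32 (adjusted p = 0.00936, edgeR), and RN was above RC in each same-numbered pair for that gene. RC replicate 3 and RN replicate 3 both had few pituitary transcripts, and between this pair, chosen after its pituitary values were seen, Neurod1 went from 90 to 910 counts, Neurod4 from 2 to 52, Nhlh1 from 2 to 44 and Insm1 from 55 to 104. A fit added after the data were seen had RN replicate 3 as the only RN mouse, so the spread between RN mice was not measured in it. Its log2 fold changes were 3.30 for Neurod1, 4.56 for Neurod4, 2.59 for Nhlh1 and 1.03 for Insm1. The same pair also differed in the summed level of the hypothalamus genes, at 39.0 and 307 CPM, and of the thalamus genes, at 3174 and 1260 CPM. The part of pituitary tissue in the values of the 9 factors was not tested.

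Hypothalamic transcripts moved with the groups. The summed level of the 18 hypothalamus genes was 230.5, 133 and 39.0 CPM in RC mice and 478, 409 and 307 CPM in RN mice. All 14 tested genes had a log2 fold change above 0, and 7 did not overlap, where 8.18% of all tested genes were higher without overlap. The median of the 14 was 1.41 (2.29 without RC replicate 1, and 0.70 with RN replicate 3 as the only RN mouse). The part of hypothalamic tissue in the Neurod4, Nhlh1 and Insm1 values was not tested. Of its genes Oxt was at 1.86 (adjusted p = 0.0813), Trh at 1.45 (0.0986) and Nkx2-1 at 1.31 (0.150) in edgeR. DESeq2 called 5 of the hypothalamus genes higher, Oxt (adjusted p = 1.35e-07), Trh (7.37e-06), Otp (0.00159), Nkx2-1 (0.00871) and Six6 (0.0130). Of the enzymes of the pineal gland, which also uses Neurod1, Aanat had at most 10 counts and Asmt at most 1 count in any library, and the 3 tested pineal genes had 0 calls by either tool. The part of pineal tissue was not tested. The 10 genes of cycling cells, in which Neurog2 and Insm1 can appear, had a summed level of 67.6 to 83.2 CPM in RC mice and 75.2 to 95.2 CPM in RN mice, with a median log2 fold change of 0.53 and 0 calls by either tool. That median was 0.16 without RC replicate 3 and 0.24 without RN replicate 2.

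Choroid plexus transcripts moved the other way. The summed level of the 12 genes was 2818, 8550 and 336 CPM in RC mice and 77.5, 110 and 158 CPM in RN mice, so every RN mouse was lower, and the median log2 fold change was -3.67. The quasi-likelihood test of edgeR called 0 of the 12, and DESeq2 called 9 lower, among them Ttr (adjusted p = 0.000208), Otx2 (3.55e-05) and F5 (0.00877). The summed level of the 8 microglia and macrophage genes was 1006 to 1194 CPM in RC mice and 1444 to 2283 CPM in RN mice, with a median log2 fold change of 0.02. Of these, 3 were higher without overlap, where 8.18% of all tested genes were. The 3 were Gpnmb at 1.39, Itgax at 1.09 and Cd68 at 0.60 (adjusted p = 0.0630, 0.107 and 0.208, edgeR). Gpnmb was called with the replicate block (adjusted p = 0.00936) and by DESeq2 (2.42e-10), and Itgax by DESeq2 (2.88e-05). The part of choroid plexus and of microglia and macrophages in the values of the 9 factors was not tested.

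**Figure D4:**
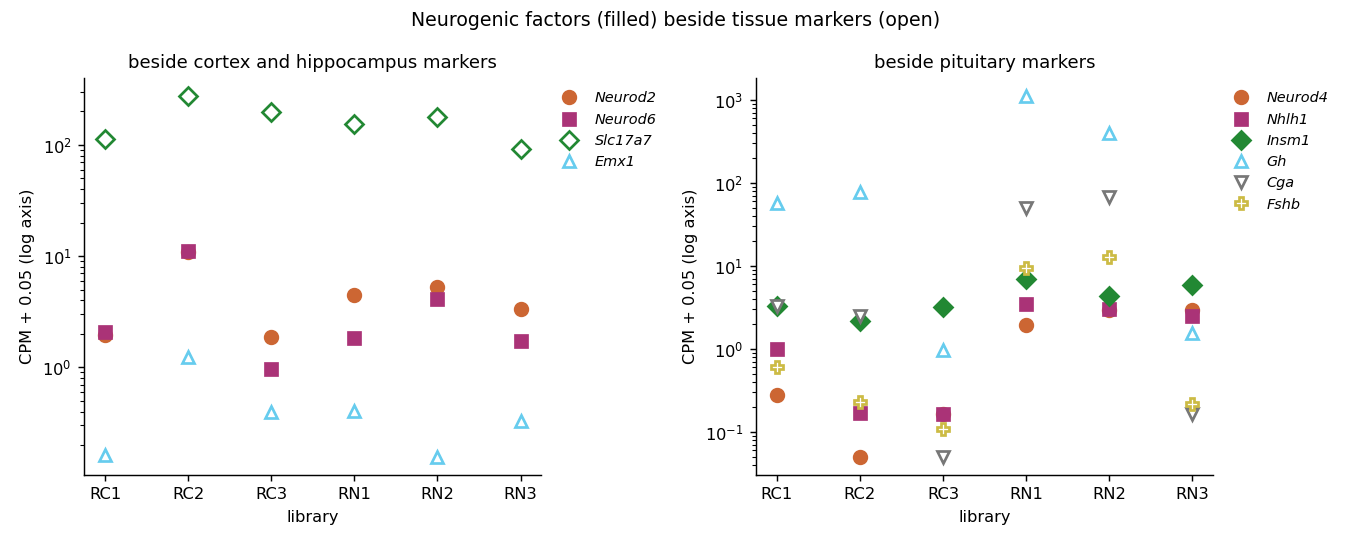
CPM plus 0.05 on a log axis in each library, for Neurod2 and Neurod6 beside markers of cortex and hippocampus (left) and for Neurod4, Nhlh1 and Insm1 beside pituitary markers (right), with the neurogenic factors filled and the markers open. Neurod2, Neurod6, Slc17a7 and Emx1 are highest in RC replicate 2. Neurod4, Nhlh1 and Insm1 lie above every RC mouse in RN replicate 3, where Gh, Cga and Fshb are low.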

How the data were processed

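The authors deposited whole-number counts of reads per gene, with 1 column per mouse and no normalization. The submitters' processing notes list fastp 0.18.0, FastQC, HISAT2 2.2.4 and RSEM 1.2.19 with the build GRCm39. The annotation, the use of strand and the treatment of reads shared between genes are not given in the sources used here, and RSEM estimates can have been rounded. Totals lay between 16561663 and 18657015.

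In R 4.3.3, edgeR 4.0.16 filtered the counts (filterByExpr, minimum count 10), scaled them by TMM and tested RN against RC by quasi-likelihood, with no covariate and Benjamini-Hochberg adjustment over all 14956 tested genes. A gene was called when its adjusted p was below 0.05 and it changed by 2-fold or more. The standard error is the log2 fold change divided by the root of F. Log2 CPM used a prior count of 2. Gene lengths and overlaps came from GENCODE M21 (GRCm38), used for no count. The fit was tested on simulated data. The alternatives were DESeq2 1.42.0, its size factors in edgeR, no filter, at least 10 counts in every library, no fold threshold, the replicate block, legacy set to FALSE and each mouse left out. The fit without RN replicates 1 and 2 was added after the data were seen.

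The same replicate numbers occur in both groups. Deviations from the group means correlated at 0.173, 0.120 and 0.209 across genes for replicates 1, 2 and 3, and RC replicate 1 with RN replicate 2 at 0.156, so blocked values are printed where they move a count.

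The members, the lists and the tests were chosen with earlier results of these data known. The genes named are the 9 members, up to 3 of each list by smallest p and 5 genes each most like Neurod1 and Neurod4, and some genes of the lists are not reported here. Slc17a7, Emx1, Gh, Otp, Six6, Insm2, Dll4, Rfng, the E protein genes, Cerkl, Tdh's values and the scarce markers were singled out after their values were seen.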

Additional observations from a re-analysis of the deposited data

How the results depend on the processing

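Neurod1 was called in every fit that kept more than 1 mouse in each group, and over all fits its log2 fold change was 3.30 to 3.96. No other member was called in a fit without 1 mouse, and the count of members called higher was 1 in all 6 of those. It was 3 with DESeq2, 2 without a filter and 2 with legacy set to FALSE, in each case with Neurod4 and, in DESeq2, Nhlh1. Over all tested genes the counts higher and lower were 100 and 87 with DESeq2, 36 and 7 without a filter, and 17 and 5 with the replicate block. With each mouse left out in turn they ran from 3 to 26 higher and from 0 to 18 lower. Neurod2 turned to 0.25 with the replicate block and to 1.20 without RC replicate 2, and Neurod6 to 0.77 without RC replicate 2. Nhlh2 turned to -0.28, -0.23 and -0.0050 without RC replicate 2, RN replicate 1 and RN replicate 2, and to -0.70 without RN replicates 1 and 2. Over the fits that left out mice, singly or RN replicates 1 and 2 together, Neurod2 ran from -0.55 to 1.20, Neurod6 from -1.48 to 0.77 and Nhlh2 from -0.70 to 0.49. The cause was not tested. The block changed no other call or direction among the members, and in the gene lists it added the calls of Cga and Gpnmb. Neurod4 and Nhlh1 had too few counts for the fit that required 10 in every library. With 3 mice a group and RC counts near the floor, the sizes of the Neurod4 and Nhlh1 differences are known only within their intervals.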
